A study of Mus musculus with 24 samples.

Results

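The glucuronosyltransferases and glutathione transferases of mouse liver are described here across strain and diet. They were taken as the protein-coding genes of mouse GENCODE whose symbol falls in the families Ugt1a, Ugt2a, Ugt2b, Ugt3a, Gsta, Gstk, Gstm, Gsto, Gstp, Gstt, Gstz and Mgst, which gave 46 of the 53677 genes in the count matrix. Of these, 40 had enough counts to be tested, among 14533 genes tested in all. The livers came from 24 mice, 1 library each, of 2 inbred strains. For 129S1/SvImJ, 5 mice had been fed chow and 6 a high-fat diet, and for C57BL/6J the numbers were 6 and 7. The labels name no allele or agent beyond strain and diet, and they give no age, sex, diet makeup or weeks of feeding. Each library held between 6707013 and 13124881 counts. The Y-linked gene Ddx3y read 96.2 to 143 CPM (counts scaled to library size) in the 24 libraries and Xist at most 0.788 CPM. All 9 hepatocyte markers examined had counts in each group, and 5 kidney markers together stayed at or below 0.237 CPM.

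Glucuronosyltransferases (UGTs) sit in the endoplasmic reticulum and attach glucuronic acid from UDP-glucuronic acid to bilirubin, bile acids, steroids and drugs. Glutathione transferases (GSTs) attach glutathione to electrophiles, and their soluble classes, named after Greek letters, stand beside microsomal forms (Mgst) of separate descent. Both kinds of conjugate leave the hepatocyte through ABC transporters in the bile canaliculus or the sinusoidal membrane. The families grew by gene duplication, so near-identical copies are common, and reads from shared stretches can be assigned to either copy or to neither. The sources used here do not say how the authors' counting treated such reads.

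A gene was called when its adjusted p was under 0.05 in edgeR's quasi-likelihood test, with Benjamini-Hochberg adjustment over all 14533 genes, and every adjusted p below is from that test. In 129S1/SvImJ the high-fat diet was called for 9 of 40 transferase genes (22.5%), against 10.4% of all genes tested. Of these, 5 were higher and 4 lower, against 5.41% and 5.01% of all genes. The count was 18 of 38 (47.4%, against 1724 of all 13298 genes tested) with only the mice of that strain in the fit. Without chow replicate 4 or high-fat diet replicate 3 of that strain, 5 were called (12.5% and 12.8%, against 9.17% and 10.4% of all genes). In C57BL/6J the diet was called for 12 of 40 (30%), against 14.9% of all genes, 3 of them higher and 9 lower (7.66% and 7.20% of all genes). Between strains on chow 20 of 40 (50%) were called, against 25.0% of all genes, 13 of them higher and 7 lower in 129S1/SvImJ (12.6% and 12.5% of all genes). Fat-fed mice of the strains also differed in 20 of 40 (50%), against 37.0% of all genes, 12 of them higher and 8 lower in 129S1/SvImJ (17.9% and 19.1% of all genes). With near-identical copies counted as 1 gene, the strain counts were 13 of 30 (43.3%) on chow and 12 of 30 (40%) on the high-fat diet, against 25.0% and 37.0% of all genes, and diet in C57BL/6J was called for 7 of 30 (23.3%, against 14.8%). The strain by diet interaction (diet effect of 129S1/SvImJ less that of C57BL/6J) was called for 1 gene, Gstm6, against 0.296% of all genes (0.172% higher and 0.124% lower). At an unadjusted p under 0.05 there were 18 members. The share of all genes at that threshold was not worked out, so the 18 cannot be read as a trait of these families. The median log2 fold change over the 40 genes was -0.12 and -0.05 for diet in 129S1/SvImJ and C57BL/6J, and 0.14 and -0.02 for strain on chow and on the high-fat diet. Over all genes tested these medians lay between -0.00 and 0.01. The comparisons share groups with one another, so their counts are given side by side only.

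**Figure D1:**
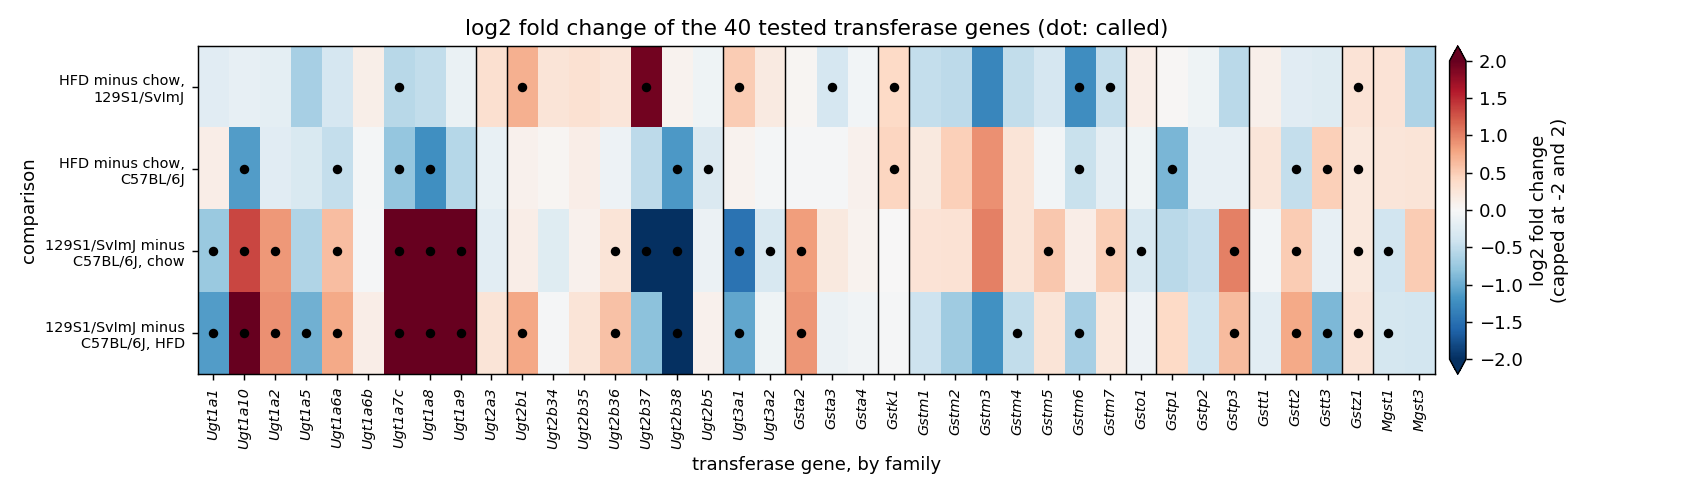
Log2 fold changes of the 40 tested transferase genes (columns, by family) in the diet comparison of each strain and the strain comparison on each diet (rows), with colours capped at 2 in either direction and a dot on each called gene. The strain rows hold 20 dots each, the diet rows 9 and 12, and the widest strain differences lie in Ugt1a and in Ugt2b37 and Ugt2b38.

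In all, the 46 genes held a mean of 0.900% of counts in 129S1/SvImJ on chow, 0.955% on the high-fat diet, 0.893% in C57BL/6J on chow and 0.965% on the high-fat diet. Levels between genes were compared as CPM per kilobase of annotated exon, averaged over the 24 mice. On that scale Mgst1 was the most abundant at 1159.9, ahead of Gstm1 at 458, Ugt2b1 at 368, Ugt2b36 at 284, Ugt2b5 at 268 and Gsta3 at 214. Neighbours in this order overlapped in their ranges over mice, and the order differed between groups: in 129S1/SvImJ on the high-fat diet Ugt2b1 averaged 536 and Gstm1 375 CPM per kilobase. As libraries were made from whole liver, fewer cells of a type and less RNA per cell cannot be told apart. All reads were set against mm10, the C57BL/6J sequence, so a strain difference in RNA level and one in how well 129S1/SvImJ reads aligned cannot be told apart.

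The Ugt1a genes showed the widest set of strain differences. Ugt1a9, Ugt1a8 and Ugt1a7c were higher in 129S1/SvImJ on both diets, by 9.90-fold, 10.1-fold and 5.19-fold on chow, and Ugt1a10, Ugt1a2 and Ugt1a6a were higher as well. Ugt1a1, the bilirubin glucuronosyltransferase, was lower on both diets, by 1.68-fold on chow. Of the 9 genes, 7 were called on chow and 8 on the high-fat diet (25.0% and 37.0% of all genes), but they share sequence and are not separate measurements. The locus on chromosome 1 gives each product its own first exon, which encodes the substrate-binding part, joined to a set of exons that all the products share. In each gene's annotated transcripts, 50.4% (Ugt1a6a) to 70.9% (Ugt1a6b) of the 100-base stretches occur in another Ugt1a gene. Part of this is sequence that only some of the genes share. Ugt1a6a has 2198 stretches in common with Ugt1a7c and 1214 with Ugt1a9.

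The 250 bases before the starts of Ugt1a9 and Ugt1a10 are shown because both genes were higher in 129S1/SvImJ and their windows are alike. They are from RefSeq on GRCm38.p6, at chr1:88070529-88070778 and chr1:88055161-88055410, both on the plus strand, and capitals mark the longest run of letters that both hold.
Ugt1a9: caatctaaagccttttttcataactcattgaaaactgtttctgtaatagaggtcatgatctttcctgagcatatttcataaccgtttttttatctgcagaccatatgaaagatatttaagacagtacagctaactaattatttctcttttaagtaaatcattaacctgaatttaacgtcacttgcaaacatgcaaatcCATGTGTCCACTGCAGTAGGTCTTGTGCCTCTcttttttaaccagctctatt
Ugt1a10: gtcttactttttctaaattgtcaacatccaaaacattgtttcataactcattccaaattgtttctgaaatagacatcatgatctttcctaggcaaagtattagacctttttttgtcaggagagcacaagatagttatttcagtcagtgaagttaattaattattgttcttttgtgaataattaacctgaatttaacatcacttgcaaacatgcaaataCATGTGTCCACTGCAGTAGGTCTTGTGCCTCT
The run is 32 bases long and begins 52 bases before the start in Ugt1a9 and 32 in Ugt1a10. Aligned with gaps, the windows hold the same base in 191 of 276 alignment columns (69.2%), against 47.5% to 53.5% for the 27 other pairs of Ugt1a windows. RefSeq windows were found for 42 of the 46 genes (51 windows). The letters are the C57BL/6J sequence and say nothing of binding.

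Ugt1a9, which conjugates phenols and other drugs, read 198, 206, 210.0, 212 and 223 CPM in the 5 chow-fed 129S1/SvImJ mice. C57BL/6J mice on chow had 14.5 at the lowest, a median of 22.4 and 25.8 CPM at the highest. With the high-fat diet the figures were 133, 206 and 227 CPM in 129S1/SvImJ and 5.18, 9.57 and 35.4 CPM in C57BL/6J. No mouse of one strain reached the range of the other on either diet. The log2 difference was 3.31 ± 0.37 (SE) on chow (adjusted p = 7.81e-07) and 3.73 ± 0.35 on the high-fat diet (adjusted p = 4.23e-08).

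Ugt1a8 lay at 20.1, 26.8, 31.6, 32.4 and 33.2 CPM in 129S1/SvImJ on chow and at 2.41, 2.69 and 3.64 CPM (lowest, median, highest) in C57BL/6J on chow. Fat-fed mice spanned 15.2 to 26.3 CPM (median 21.04) in 129S1/SvImJ and 0.372 to 2.24 CPM (median 1.28) in C57BL/6J. The strains did not overlap, and in C57BL/6J every mouse on the high-fat diet was below every mouse on chow. The log2 strain difference was 3.34 ± 0.22 on chow (adjusted p = 1.70e-11) and 4.07 ± 0.23 on the high-fat diet (adjusted p = 6.37e-13). Within C57BL/6J it fell by 1.22 ± 0.27 on the log2 scale with the high-fat diet (adjusted p = 0.00389). The change in 129S1/SvImJ, -0.49 ± 0.19, was not called (adjusted p = 0.106), and neither was the interaction (0.73 ± 0.34, adjusted p = 0.319).

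Ugt1a7c had 19.4, 27.6, 37.0, 37.9 and 38.1 CPM in 129S1/SvImJ on chow, against 5.05 to 7.53 CPM (median 6.27) in C57BL/6J on chow. Fat-fed mice of the strains read 15.6 to 28.9 CPM (median 21.4) and 2.85 to 4.202 CPM (median 3.65). The strains were apart on both diets, with log2 differences of 2.38 ± 0.18 (adjusted p = 6.67e-11) and 2.59 ± 0.17 (adjusted p = 6.58e-12). It was the Ugt1a gene called for diet in both strains, falling by 0.56 ± 0.16 in 129S1/SvImJ (adjusted p = 0.0268) and by 0.77 ± 0.19 in C57BL/6J (adjusted p = 0.00593) on the log2 scale. The call in 129S1/SvImJ was lost without chow replicate 2, 4 or 5 or high-fat diet replicate 2, 3 or 6 of that strain (adjusted p from 0.00359 to 0.0842 over the 24 fits without 1 library).

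Ugt1a1 showed the opposite order of the strains. Its values were 129, 134, 142, 144 and 151 CPM in 129S1/SvImJ on chow and 202 to 260.4 CPM (median 238) in C57BL/6J on chow. In fat-fed mice they were 108 to 125 CPM (median 120.1) and 192 to 313 CPM (median 253). Every 129S1/SvImJ mouse was below every C57BL/6J mouse on the same diet, with log2 differences of -0.75 ± 0.09 (adjusted p = 5.21e-07) and -1.12 ± 0.08 (adjusted p = 5.74e-11). The diet values were -0.23 ± 0.09 in 129S1/SvImJ and 0.14 ± 0.08 in C57BL/6J, neither called (adjusted p = 0.109 and 0.285).

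**Figure D2:**
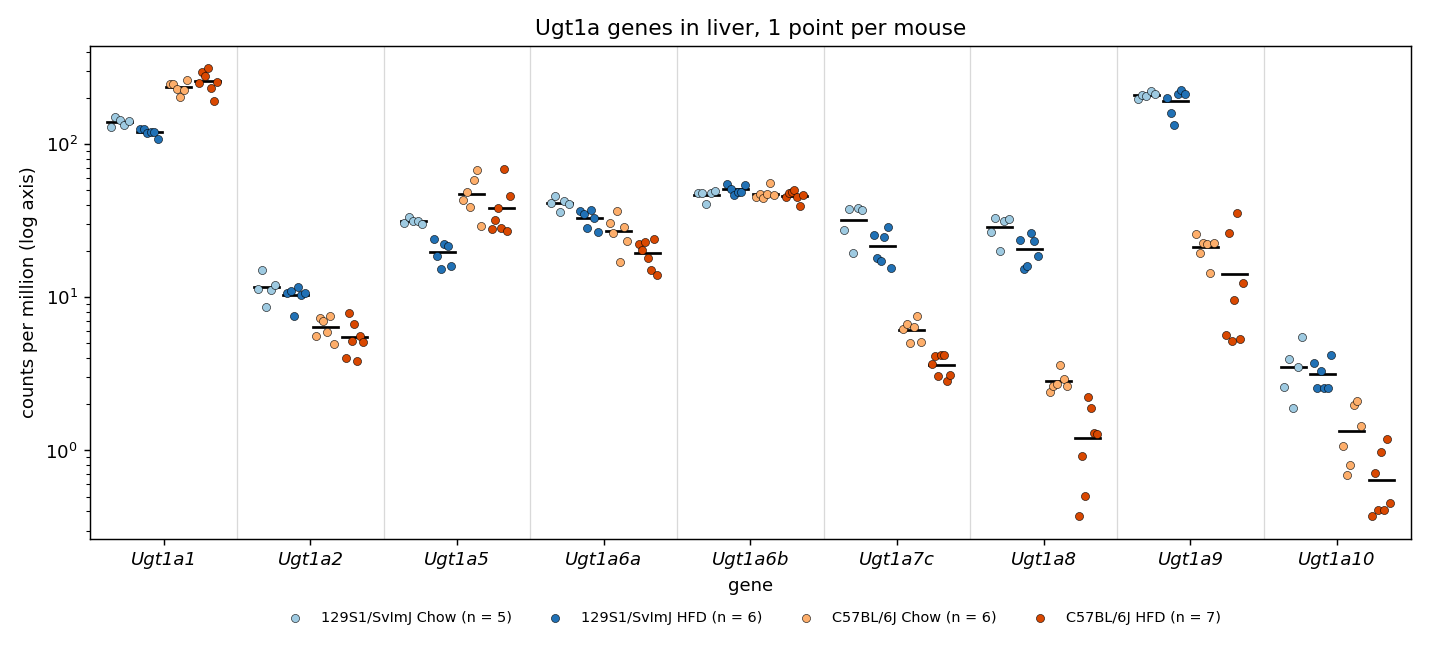
Level of the 9 Ugt1a genes in each mouse (CPM, log axis), by strain and diet, with a line at each group mean. Ugt1a9, Ugt1a8 and Ugt1a7c stand higher in every 129S1/SvImJ mouse than in any C57BL/6J mouse on the same diet, Ugt1a1 stands lower, and Ugt1a6b lies in one band of 39.5 to 55.5 CPM.

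Among the remaining Ugt1a genes, Ugt1a10 differed between strains by a log2 of 1.34 ± 0.30 on chow (adjusted p = 0.00138) and 2.30 ± 0.30 on the high-fat diet (adjusted p = 1.28e-06), at means of 0.646 to 3.49 CPM. Ugt1a2 was higher in 129S1/SvImJ by 0.87 on chow (adjusted p = 0.000242) and 0.91 on the high-fat diet (adjusted p = 3.51e-05). Ugt1a6a, one of the phenol glucuronosyltransferases, was higher by 0.62 (adjusted p = 0.00313) and 0.76 (adjusted p = 0.000129). Ugt1a5 was lower by a log2 of -0.96 on the high-fat diet (adjusted p = 0.000961), and its chow value of -0.60 was not called (adjusted p = 0.0512). Ugt1a6b was called in no comparison, with means of 46.2 to 50.8 CPM in the 4 groups. With the high-fat diet Ugt1a10 and Ugt1a6a also fell in C57BL/6J, by 1.12 (adjusted p = 0.0220) and 0.47 (adjusted p = 0.0245), calls that ended without chow replicate 4 or 5 or high-fat diet replicate 7 for the first and without chow replicate 1 or 3 or high-fat diet replicate 5 or 7 for the second.

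As a share of all Ugt1a counts, Ugt1a9 held 38.5% ± 1.64 (SD, n = 5) in 129S1/SvImJ on chow and 5.38% ± 1.06 (SD, n = 6) in C57BL/6J on chow. Ugt1a1 held 25.7% ± 1.69 and 59.5% ± 4.03. The leading Ugt1a transcript by count was thus Ugt1a9 in one strain and Ugt1a1 in the other, and the shares on the high-fat diet were 40.4% against 3.54% for Ugt1a9 and 25.7% against 66.6% for Ugt1a1. With the 9 genes counted as 1, the locus was higher in 129S1/SvImJ by a log2 of 0.46 ± 0.08 on chow (adjusted p = 0.000157) and by 0.27 ± 0.08 on the high-fat diet (adjusted p = 0.00702). The summed locus was not called for diet in C57BL/6J (-0.03 ± 0.08, adjusted p = 0.860) or 129S1/SvImJ (-0.22 ± 0.08, adjusted p = 0.1002). Gm20528 overlaps the locus on the opposite strand, and the strand setting of the counting is not stated.

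In the Ugt2b cluster on chromosome 5, whose products conjugate steroids, bile acids and drugs, Ugt2b38 set the strains fully apart on both diets. It was read in C57BL/6J and hardly at all in 129S1/SvImJ, while its neighbours Ugt2b1, Ugt2b5, Ugt2b34, Ugt2b35 and Ugt2b36 were abundant in both. Ugt2b38, Ugt2b37 and Ugt2b5 are close copies in the stretch before their start. Their windows (RefSeq, GRCm38.p6, minus strand, chr5:87424204-87424453, chr5:87254789-87255038 and chr5:87140341-87140590) are shown since the 3 genes differ so widely in level. Capitals mark the longest run that they share, 62 bases.
Ugt2b38: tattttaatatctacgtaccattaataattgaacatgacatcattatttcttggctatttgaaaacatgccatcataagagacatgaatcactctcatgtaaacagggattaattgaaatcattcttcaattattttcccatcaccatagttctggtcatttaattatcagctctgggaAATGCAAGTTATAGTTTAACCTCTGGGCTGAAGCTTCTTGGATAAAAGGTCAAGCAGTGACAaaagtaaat
Ugt2b37: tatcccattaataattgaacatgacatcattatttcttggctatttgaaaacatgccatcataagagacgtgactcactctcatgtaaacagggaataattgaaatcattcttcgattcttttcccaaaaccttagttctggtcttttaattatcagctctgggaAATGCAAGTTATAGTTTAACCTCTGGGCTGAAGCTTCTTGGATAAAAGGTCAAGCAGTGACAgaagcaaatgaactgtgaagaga
Ugt2b5: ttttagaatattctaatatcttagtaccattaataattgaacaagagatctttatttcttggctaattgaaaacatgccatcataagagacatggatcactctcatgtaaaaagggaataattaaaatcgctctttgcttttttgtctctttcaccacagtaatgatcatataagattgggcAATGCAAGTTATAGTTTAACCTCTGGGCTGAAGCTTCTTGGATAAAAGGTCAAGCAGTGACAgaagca
The shared run begins 71 bases before the start in Ugt2b38, 85 in Ugt2b37 and 68 in Ugt2b5. Aligned with gaps, Ugt2b38 holds the same base as Ugt2b37 in 85.2% of columns and as Ugt2b5 in 81.5%, and Ugt2b37 and Ugt2b5 in 73.0%, against 49.0% to 60.4% for the 18 other pairs of Ugt2b windows.

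Ugt2b38 had 0, 0, 0.209, 0.225 and 0.263 CPM in 129S1/SvImJ on chow, 6 counts over the 5 libraries. Fat-fed 129S1/SvImJ had 10 counts over 6 libraries, and at most 0.331 CPM in any mouse. C57BL/6J had 15.5 to 51.6 CPM (median 38.6) on chow and 4.26 to 25.9 CPM (median 17.4) on the high-fat diet. The strains were far apart on both diets, with fitted log2 differences of -7.83 ± 0.67 (adjusted p = 7.90e-09) and -6.61 ± 0.61 (adjusted p = 1.74e-08), whose size depends on the prior count since so few reads were counted in 129S1/SvImJ. In C57BL/6J Ugt2b38 fell with the high-fat diet by 1.14 ± 0.30 on the log2 scale (adjusted p = 0.0139, or 0.0753 with only the compared groups in the fit). Of its 100-base stretches 24.2% also occur in Ugt2b5. With the counts of these copies summed, the strain difference was -0.20 on chow (adjusted p = 0.177) and 0.04 on the high-fat diet (adjusted p = 0.784), as Ugt2b5 gave most of the sum.

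Ugt2b37, of whose stretches 98.9% are its own, read 0.263, 0.314, 0.371, 0.787 and 1.35 CPM in 129S1/SvImJ on chow and 2.12 to 11.4 CPM (median 5.54) in C57BL/6J on chow. Among fat-fed mice it read 1.16 to 5.39 CPM (median 1.93) and 2.38 to 5.89 CPM (median 3.84). The strains were apart on chow and overlapped on the high-fat diet. On chow the log2 difference was -3.27 ± 0.54 (adjusted p = 6.09e-05), and on the high-fat diet -0.81 ± 0.39 (adjusted p = 0.106). It rose with the diet in 129S1/SvImJ by 1.93 ± 0.58 (adjusted p = 0.0343), a call lost without chow replicate 1, 2, 4 or 5 or high-fat diet replicate 3 or 6 of that strain (adjusted p up to 0.0997). The interaction of 2.46 ± 0.68 was not called (adjusted p = 0.0972).

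Ugt2b1, the most abundant Ugt per kilobase, had 709, 763, 832, 897 and 1010.0 CPM in 129S1/SvImJ on chow and 1060.5 to 2035 CPM (median 1232) on the high-fat diet. C57BL/6J had 516 to 889 CPM (median 805) on chow and 361 to 1169.8 CPM (median 888) on the high-fat diet. Every 129S1/SvImJ mouse on the high-fat diet was above every one on chow, while the diets overlapped in C57BL/6J. The rise in 129S1/SvImJ was 0.71 ± 0.23 (adjusted p = 0.0454), and leaving out 1 library ended the call in 13 of 24 cases (adjusted p from 0.0119 to 0.118). Diet gave 0.08 ± 0.20 in C57BL/6J (adjusted p = 0.842), and the difference between the strains' diet effects was 0.63 ± 0.30 (adjusted p = 0.348). On the high-fat diet Ugt2b1 was higher in 129S1/SvImJ by 0.77 ± 0.20 (adjusted p = 0.00487).

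Ugt2b36 read 574, 582, 615, 659.9 and 673 CPM in 129S1/SvImJ on chow and 691 to 847 CPM (median 705) on the high-fat diet. C57BL/6J spanned 451 to 593 CPM (median 513) on chow and 381 to 558 CPM (median 511) on the high-fat diet. The strains touched on chow and were apart on the high-fat diet, where 129S1/SvImJ was higher by 0.59 ± 0.08 (adjusted p = 2.04e-06). The chow difference of 0.25 ± 0.09 (adjusted p = 0.0326) lost its call without chow replicate 4 or 5 of 129S1/SvImJ or chow replicate 1, 2, 3 or 5 of C57BL/6J (adjusted p up to 0.0979).

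Ugt2b5 had 409, 492, 526, 558 and 569 CPM in 129S1/SvImJ on chow and 409.6 to 647 CPM on the high-fat diet. C57BL/6J had 466 to 629 CPM on chow and 403 to 495 CPM on the high-fat diet. The ranges of all groups overlapped. Ugt2b5 fell with the diet in C57BL/6J by 0.28 ± 0.10 (adjusted p = 0.0471), a call that leaving out 1 library ended in 13 of 24 cases. Ugt2b34, Ugt2b35 and Ugt2a3 were called in no comparison, at group means of 422 to 509.9, 212 to 278 and 264 to 329 CPM.

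**Figure D3:**
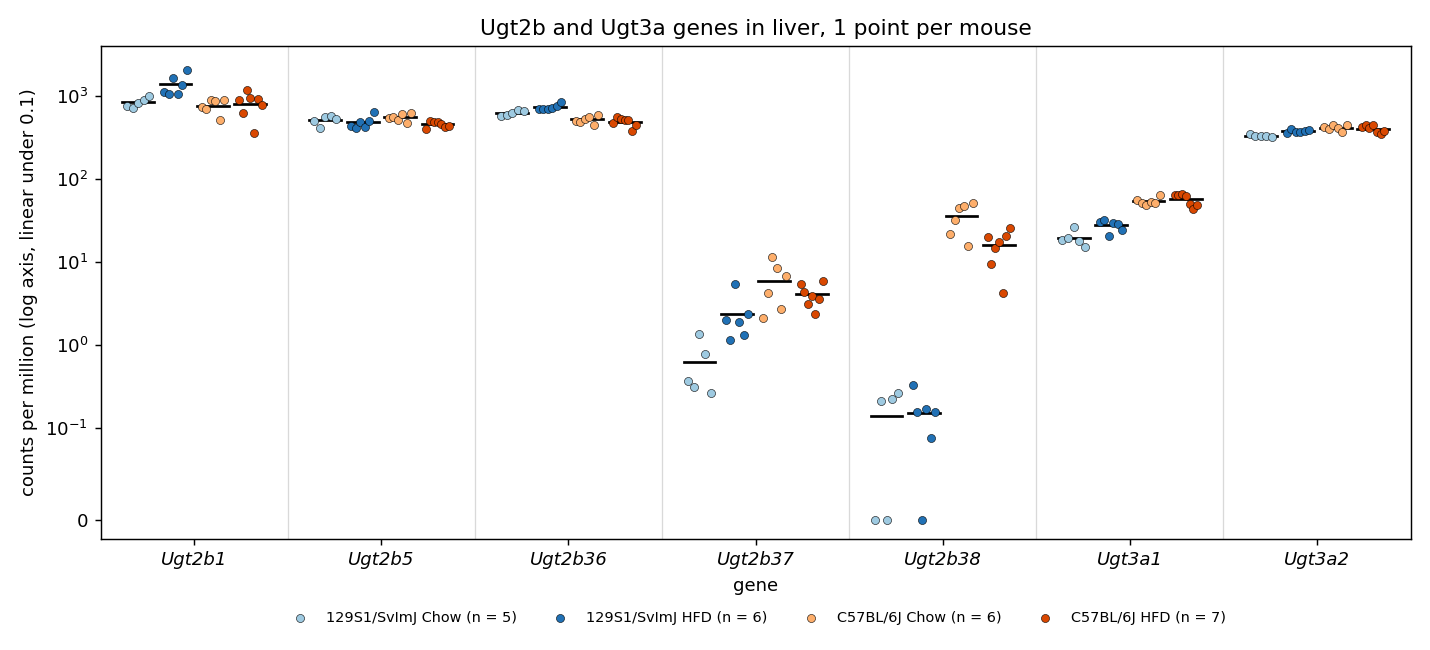
Level of 5 Ugt2b genes and both Ugt3a genes in each mouse (CPM, axis linear near 0 and logarithmic above), with a line at each group mean. Ugt2b38 lies at or below 0.331 CPM in every 129S1/SvImJ mouse and at or above 4.26 CPM in every C57BL/6J mouse, while Ugt2b5 overlaps in all groups.

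The Ugt3a genes on chromosome 15, whose products are known to use other UDP-sugars than UDP-glucuronic acid, were lower in 129S1/SvImJ on chow. Ugt3a1 read 15.1, 17.98, 18.55, 19.6 and 26.0 CPM in 129S1/SvImJ on chow and 48.5 to 64.2 CPM (median 52.0) in C57BL/6J on chow. On the high-fat diet it read 20.3 to 32.4 CPM (median 29.2) and 43.6 to 66.0 CPM (median 63.1). The strains did not overlap, with log2 differences of -1.47 ± 0.14 (adjusted p = 4.40e-09) and -1.04 ± 0.12 (adjusted p = 1.59e-07). Ugt3a1 rose with the diet in 129S1/SvImJ by 0.51 ± 0.14 (adjusted p = 0.0158), against 0.08 ± 0.12 in C57BL/6J (adjusted p = 0.712), and the interaction was not called (0.43 ± 0.18, adjusted p = 0.259). Ugt3a2 differed on chow by -0.32 (adjusted p = 0.00101), with 324 to 345 CPM in 129S1/SvImJ and 363 to 448 CPM in C57BL/6J.

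The mu class, a cluster of 7 Gstm genes on chromosome 3 that includes the abundant hepatic enzyme Gstm1, gave the single interaction call. Gstm6 fell with the high-fat diet in both strains, by 2.37-fold in 129S1/SvImJ and 1.36-fold in C57BL/6J. Its values were 66.2, 73.2, 74.9, 80.2 and 87.5 CPM in 129S1/SvImJ on chow and 23.9 to 38.9 CPM (median 32.7) on the high-fat diet. C57BL/6J had 47.2 to 76.4 CPM (median 73.8) on chow and 37.1 to 62.7 CPM (median 50.9) on the high-fat diet. The diets were fully apart in 129S1/SvImJ and overlapped in C57BL/6J. The log2 changes were -1.25 ± 0.13 (adjusted p = 3.39e-07) and -0.44 ± 0.11 (adjusted p = 0.0101), and the interaction was -0.80 ± 0.17 (adjusted p = 0.0431). Leaving out 1 library ended the interaction call in 16 of 24 cases (adjusted p from 0.0206 to 0.113). On the high-fat diet Gstm6 was lower in 129S1/SvImJ by a log2 of -0.67 ± 0.12 (adjusted p = 8.26e-05).

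Gstm7 read 50.3, 55.0, 55.2, 57.7 and 58.2 CPM in 129S1/SvImJ on chow and 35.1 to 42.2 CPM (median 40.2) on the high-fat diet. C57BL/6J had 32.3 to 46.9 CPM (median 38.7) on chow and 28.3 to 40.8 CPM (median 35.3) on the high-fat diet. Chow-fed 129S1/SvImJ stood above all the other groups. Gstm7 fell in 129S1/SvImJ by 0.47 ± 0.09 (adjusted p = 0.00129), and on chow it was higher than in C57BL/6J by 0.49 ± 0.09 (adjusted p = 0.000211). Gstm5 was also higher in 129S1/SvImJ on chow (0.54 ± 0.15, adjusted p = 0.00740), with 5.91 to 7.42 CPM against 3.97 to 5.31 CPM, and its exons overlap 4933431E20Rik on the opposite strand.

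Gstm1 had 718, 747, 752, 754 and 887 CPM in 129S1/SvImJ on chow and 510.5 to 619 CPM (median 543) on the high-fat diet, ranges that did not overlap. C57BL/6J had 468 to 749 CPM (median 654) on chow and 419 to 1610.1 CPM (median 556) on the high-fat diet. The highest value, 1610.1 CPM, belongs to replicate 5, with replicate 2 next at 972 CPM. Replicate 5 also had the highest Gstm2 (87.6 CPM) and Gstm3 (167 CPM) of its group. The log2 change in 129S1/SvImJ was -0.48 ± 0.25 and was not called (adjusted p = 0.238). Fitted on the 2 groups of 129S1/SvImJ alone it was called (adjusted p = 0.000375), as it was with replicate 5 of C57BL/6J on the high-fat diet left out (adjusted p = 0.0424), and over all alternatives the adjusted p ran from 0.000375 to 0.598.

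Gstm3 read 36.5, 48.3, 50.01, 53.2 and 54.4 CPM in 129S1/SvImJ on chow and 13.6 to 34.9 CPM (median 17.0) on the high-fat diet. C57BL/6J had 14.1 to 28.1 CPM (median 25.3) on chow and 7.87 to 167 CPM (median 27.7) on the high-fat diet. Chow-fed 129S1/SvImJ was again apart from the fat-fed group of its strain, but the change of -1.30 ± 0.57 was not called (adjusted p = 0.160). It was called on the groups of 129S1/SvImJ alone (adjusted p = 0.00369) and without C57BL/6J replicate 5 on the high-fat diet (adjusted p = 0.0306), within a range of 0.00369 to 0.586 over all alternatives. Gstm2 and Gstm4 had log2 changes of -0.53 (adjusted p = 0.307) and -0.49 (adjusted p = 0.0976) in 129S1/SvImJ, and 0.47 (adjusted p = 0.282) and 0.26 (adjusted p = 0.324) in C57BL/6J. Gstm4 was lower in 129S1/SvImJ on the high-fat diet, by a log2 of -0.50 (adjusted p = 0.0257), a call lost without its high-fat diet replicate 4 or without C57BL/6J high-fat diet replicate 2 or 5. The sum over the 7 genes was 1039 ± 82.6 CPM (SD, n = 5) and 706 ± 56.96 CPM (SD, n = 6) in 129S1/SvImJ on chow and the high-fat diet. In C57BL/6J it was 845 ± 122 CPM (SD, n = 6) and 956 ± 524 CPM (SD, n = 7), the last spanning 563 to 2031 CPM.

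Replicate 5 of C57BL/6J on the high-fat diet stood apart in other genes too. The sum of the fat-cell genes Adipoq, Lep, Plin1 and Retn, chosen after their values were seen, was 6.31 CPM there, 1.36 CPM in replicate 1 of 129S1/SvImJ on chow, and below 1 CPM in the remaining libraries. On the full list of 7 adipocyte markers it was not high, at 127 CPM against 82.4 to 359 CPM in the others of its group. It was the highest of the 24 libraries in summed cholangiocyte markers (160.1 CPM, at most 89.6 in the others) and stellate cell markers (864 CPM, at most 754), and the lowest in hepatocyte markers (80046 CPM, at least 83295). It was also the highest in the NRF2 targets Nqo1 (12.1 CPM) and Srxn1 (84.0 CPM) and in the proliferation genes Mki67 (21.8 CPM) and Top2a (13.7 CPM). The other listed NRF2 targets were not examined by library. Replicate 2 of the same group came next of the 24 in these genes, at 9.55, 72.9, 17.0 and 8.43 CPM. It also came next in Gstm1 (972 CPM), Gstm2 (52.5 CPM) and Gstm3 (59.5 CPM). Replicate 5 had Mgst3 at 15.7 CPM (2.13 to 7.01 in the others of its group) and the lowest Gstp1 (79.0 CPM) and Ugt2b1 (361 CPM) of the 24. The part of other cell types in these values was not tested. With replicate 5 left out, Ugt1a9 fell with the diet in C57BL/6J (adjusted p = 0.0360), against 0.308 with all mice.

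**Figure D4:**
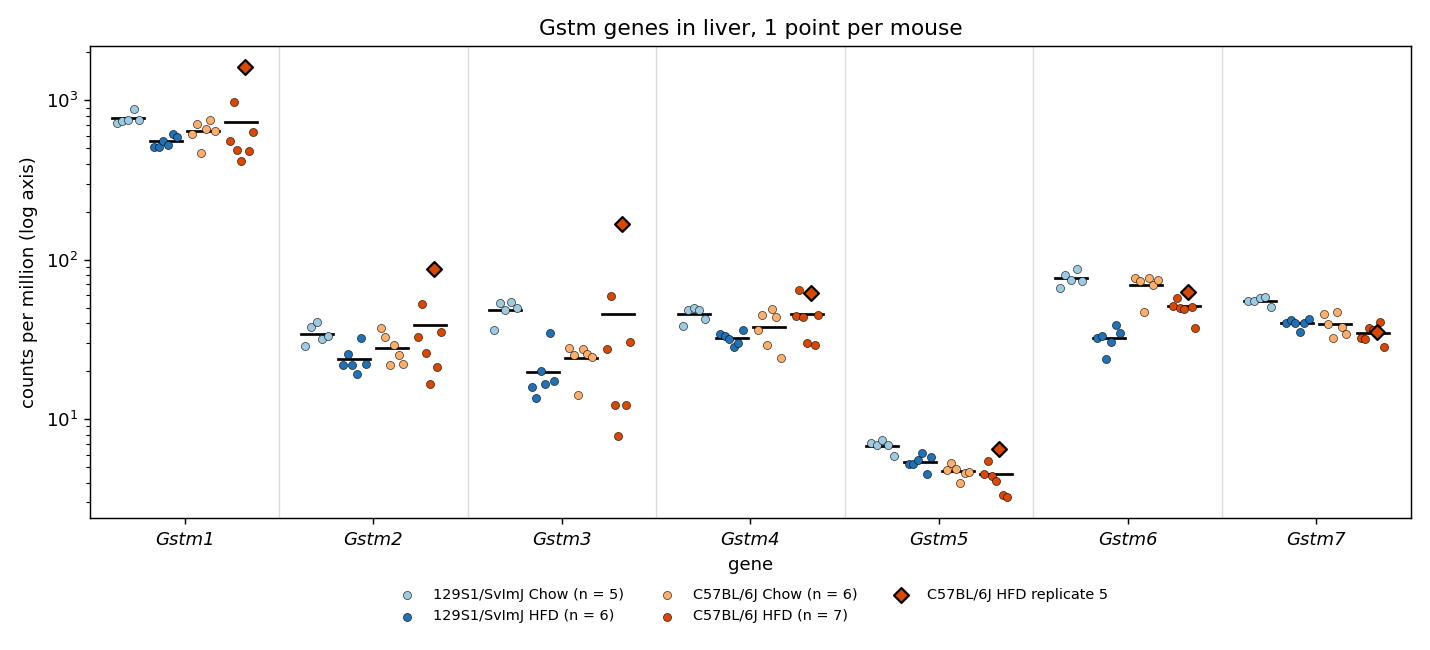
Level of the 7 Gstm genes in each mouse (CPM, log axis), with a line at each group mean and a diamond for replicate 5 of C57BL/6J on the high-fat diet. Gstm6 and Gstm7 in 129S1/SvImJ lie lower in every mouse on the high-fat diet than on chow, and the diamond is the highest point for Gstm1, Gstm2 and Gstm3.

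In the alpha class, which acts on products of lipid peroxidation, Gsta3 carried most of the level and Gsta2 the strain difference. Gsta3 had 832, 957, 1120.0, 1182 and 1210.0 CPM in 129S1/SvImJ on chow and 634 to 959 CPM (median 885) on the high-fat diet. C57BL/6J had 801 to 1039 CPM on chow and 766 to 1038 CPM on the high-fat diet, so all groups overlapped. The fall in 129S1/SvImJ was 0.33 ± 0.11 on the log2 scale (adjusted p = 0.0499), and leaving out 1 library ended the call in 16 of 24 cases (adjusted p from 0.0224 to 0.128).

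Gsta2 read 9.003, 10.5, 11.004, 14.8 and 17.5 CPM in 129S1/SvImJ on chow and 5.88 to 8.26 CPM (median 6.90) in C57BL/6J on chow. On the high-fat diet it read 7.82 to 19.0 CPM (median 12.3) and 3.76 to 11.3 CPM (median 6.23). The strains were apart on chow and overlapped on the high-fat diet, with log2 differences of 0.84 ± 0.24 (adjusted p = 0.0105) and 0.89 ± 0.22 (adjusted p = 0.00207). Gsta2 shares 18.2% of its 100-base stretches with Gsta1, and 16.9% with the gene models Gm10639 and Gm3776. Gsta1, of whose stretches 19.4% are its own, had too few counts to test, at 0 to 3.94 CPM. Gsta4, which conjugates the lipid peroxidation product 4-hydroxynonenal, was not called in any comparison, at means of 27.0 to 28.9 CPM.

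Gstk1, the kappa-class enzyme of mitochondria and peroxisomes, rose with the high-fat diet in both strains, by 1.32-fold and 1.35-fold. It read 54.8, 60.7, 61.2, 61.7 and 75.8 CPM in 129S1/SvImJ on chow and 76.0 to 85.8 CPM (median 83.7) on the high-fat diet. C57BL/6J had 53.9 to 66.6 CPM (median 64.0) on chow and 71.8 to 95.7 CPM (median 83.5) on the high-fat diet. The diets did not overlap in either strain, and the strains overlapped on each diet. The log2 changes were 0.40 ± 0.08 (adjusted p = 0.00157) and 0.43 ± 0.07 (adjusted p = 0.000219), both called in all 24 fits without 1 library.

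Gstz1, which isomerises maleylacetoacetate in tyrosine breakdown, also rose in both strains. It had 525, 560.3, 590.1, 625 and 632 CPM in 129S1/SvImJ on chow and 626 to 749 CPM (median 722) on the high-fat diet. C57BL/6J had 482 to 535 CPM (median 503) on chow and 533 to 647 CPM (median 589) on the high-fat diet. The diets met at their edges in both strains. The log2 changes were 0.27 ± 0.07 (adjusted p = 0.00783) and 0.21 ± 0.06 (adjusted p = 0.0188), and 129S1/SvImJ was higher on chow by 0.22 ± 0.07 (adjusted p = 0.0168) and on the high-fat diet by 0.28 ± 0.06 (adjusted p = 0.000715). The chow difference was not called without 129S1/SvImJ chow replicate 3 or 4 (adjusted p = 0.0506 and 0.0516). Exons of Pomt2 and Gm6566 overlap Gstz1 on the opposite strand.

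Mgst1, the microsomal enzyme and most abundant member, read 1604, 1642, 1870.0, 1893 and 2035 CPM in 129S1/SvImJ on chow and 2070.2 to 2411 CPM (median 2169) on the high-fat diet. C57BL/6J had 2101 to 2727 CPM (median 2341) on chow and 2036 to 3214 CPM (median 2904) on the high-fat diet. Chow-fed 129S1/SvImJ was below every mouse of the other groups, narrowly for C57BL/6J on the high-fat diet. Mgst1 was lower in 129S1/SvImJ by a log2 of -0.39 ± 0.09 on chow (adjusted p = 0.00304) and -0.35 ± 0.09 on the high-fat diet (adjusted p = 0.00243). The diet values were 0.28 ± 0.09 in 129S1/SvImJ (adjusted p = 0.0564) and 0.24 ± 0.09 in C57BL/6J (adjusted p = 0.0621), neither called. Both were called without replicate 6 of C57BL/6J on the high-fat diet, at adjusted p = 0.0177 and 0.00466, and each without 1 chow library of its own strain, replicate 3 (adjusted p = 0.0391) and replicate 4 (adjusted p = 0.0353).

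The pi class was led by Gstp1, which is known in mouse liver for its higher level in males. It had 162, 164, 178, 216 and 271 CPM in 129S1/SvImJ on chow and 139 to 320.1 CPM (median 156) on the high-fat diet. C57BL/6J had 214 to 333 CPM (median 298) on chow and 79.0 to 265 CPM (median 141) on the high-fat diet. The diets overlapped in both strains, and in C57BL/6J most mice on the high-fat diet lay below the chow range. Gstp1 fell there by 0.91 ± 0.25 on the log2 scale (adjusted p = 0.0153), while the value in 129S1/SvImJ was a change of +0.02 ± 0.27 (adjusted p = 0.974), and the interaction of 0.93 ± 0.36 was not called (adjusted p = 0.243). Gstp1 shares 25.1% of its stretches with Gstp2, which read at most 1.92 CPM, and the sum of the copies fell by the same 0.91 (adjusted p = 0.0155). Gstp3 was higher in 129S1/SvImJ on chow by 1.01 ± 0.19 (adjusted p = 0.000332), at 23.1 to 30.1 CPM against 9.30 to 16.02 CPM, and on the high-fat diet by 0.64 ± 0.18 (adjusted p = 0.00737).

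The theta class, whose members act on small halogenated compounds, moved in different directions in C57BL/6J. Gstt3 had 17.2, 20.6, 23.2, 23.4 and 28.5 CPM in 129S1/SvImJ on chow and 12.6 to 24.3 CPM (median 18.9) on the high-fat diet. C57BL/6J had 20.01 to 31.5 CPM (median 24.2) on chow and 24.2 to 40.5 CPM (median 35.7) on the high-fat diet. The strains nearly parted on the high-fat diet and overlapped on chow. Gstt3 rose in C57BL/6J by 0.48 ± 0.14 (adjusted p = 0.0221), a call lost without chow replicate 3 or 6 (adjusted p = 0.0563 and 0.0575), and was lower in 129S1/SvImJ on the high-fat diet by a log2 of -0.90 ± 0.14 (adjusted p = 2.49e-05). The interaction of -0.74 ± 0.21 was not called (adjusted p = 0.109), and 10.8% of its stretches occur in Gm20441.

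Gstt2 read 73.0, 77.3, 82.2, 83.0 and 85.2 CPM in 129S1/SvImJ on chow and 61.9 to 75.7 CPM (median 68.6) on the high-fat diet. C57BL/6J had 43.2 to 73.2 CPM (median 55.5) on chow and 31.1 to 51.3 CPM (median 37.6) on the high-fat diet. The strains were apart on the high-fat diet and touched on chow. Gstt2 fell in C57BL/6J by 0.47 ± 0.12 (adjusted p = 0.00795, or 0.0535 with only the compared groups in the fit), and was higher in 129S1/SvImJ by 0.50 ± 0.13 on chow (adjusted p = 0.00436) and 0.76 ± 0.12 on the high-fat diet (adjusted p = 1.65e-05). Gstt1 was not called in any comparison, with 0.24 ± 0.09 for diet in C57BL/6J (adjusted p = 0.0525) at means of 151 to 187 CPM. Gsto1, of the omega class, was lower in 129S1/SvImJ on chow by a log2 of -0.32 ± 0.07 (adjusted p = 0.00107), at 40.9 to 48.3 CPM against 49.9 to 62.7 CPM.

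**Figure D5:**
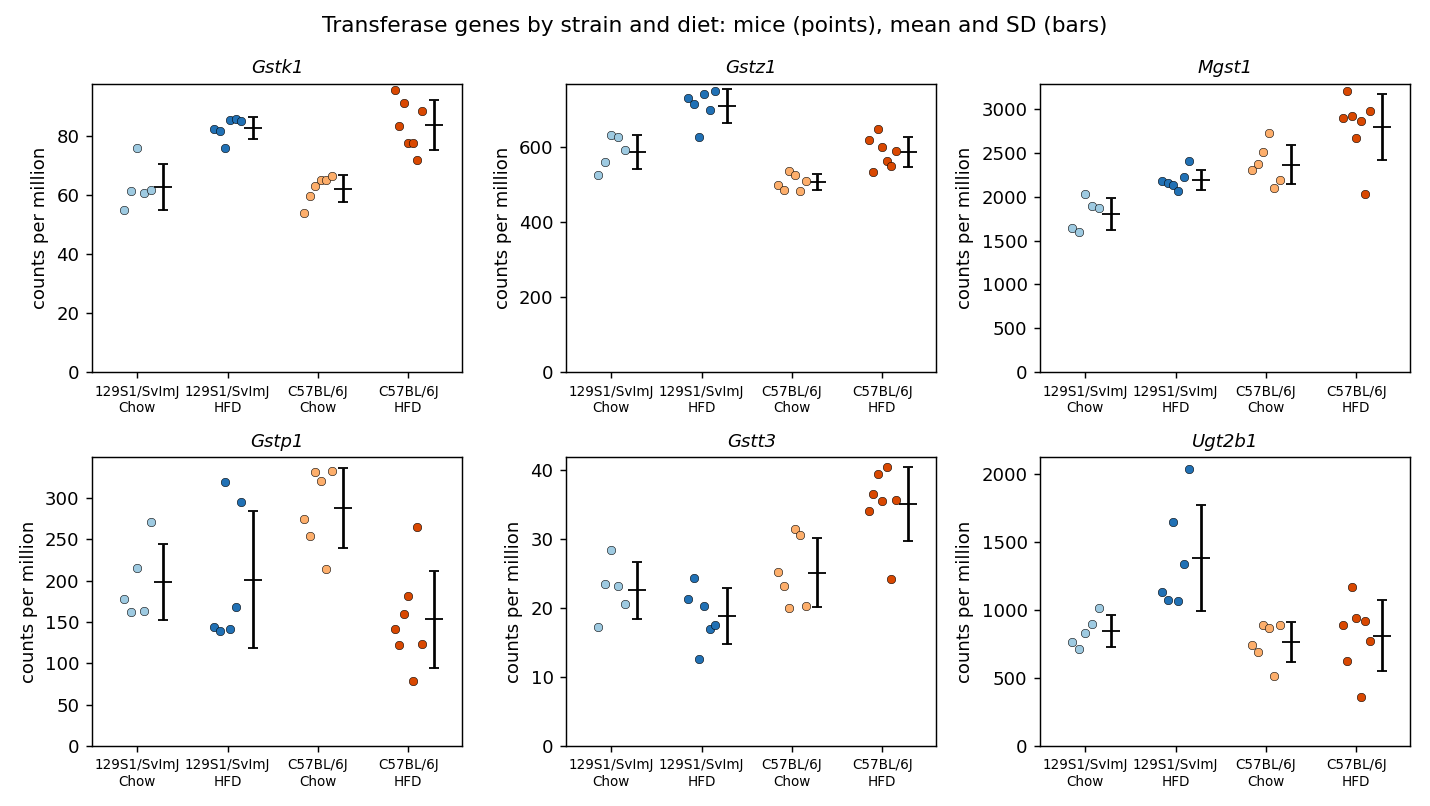
Level of Gstk1, Gstz1, Mgst1, Gstp1, Gstt3 and Ugt2b1 in each mouse (CPM, axes from 0), with bars for mean and SD. Gstk1 and Gstz1 have higher means on the high-fat diet in both strains, Gstp1 has a lower mean in C57BL/6J (153 against 288 CPM) and Ugt2b1 a higher one in 129S1/SvImJ (1379 against 842 CPM).

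Of the 6 untested members, Ugt2a1 and Ugt2a2 had 0 counts in every library. Gsta1, Gsto2, Gstt4 and Mgst2 had group means of at most 0.825 CPM. Only 5.06% of the 100-base stretches of Ugt2a1, 6.53% of those of Ugt2a2 and 19.4% of those of Gsta1 are their own. As the treatment of shared reads is not stated, the counts of Ugt2a1, Ugt2a2 and Gsta1 cannot tell absent RNA from unassigned reads. The antioxidant response element TGACNNNGC, which NRF2 binds in many conjugation genes, stood on either strand in 4 member windows (Gsta3, Gstm5, Gstm7 and Mgst1, 7.84%) against 10.2% of all windows. No match stood in the windows of Gstm1 to Gstm4.

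Genes of the reactions around conjugation were counted from lists. Their counts stand beside the shares of all genes called, which were 10.4% and 14.9% for diet in 129S1/SvImJ and C57BL/6J and 25.0% and 37.0% for strain on chow and on the high-fat diet. Several lists were at or below those shares, among them the glucuronide list on chow (1 of 9), the receptors on chow (2 of 16) and the targets of CAR and PXR on chow (3 of 12). Of 9 genes listed around UDP-glucuronic acid and glucuronides, not all of which act on these compounds, diet called none in either strain (3 and 2 had an unadjusted p under 0.05, and DESeq2 called 0 as well). Between strains 1 was lower in 129S1/SvImJ on chow, the transporter Slc35b1 (-0.40, adjusted p = 0.0108), and 3 were higher on the high-fat diet, among them Uxs1, which turns UDP-glucuronic acid into UDP-xylose (0.49, adjusted p = 0.00215). Of 18 glutathione genes, 1 rose with diet in 129S1/SvImJ, Gpx1 (0.37, adjusted p = 0.00991), and 2 fell in C57BL/6J, the transsulfuration enzymes Cth (-0.81, adjusted p = 0.00413) and Cbs (-0.43, adjusted p = 0.0202). On chow 4 were higher and 2 lower in 129S1/SvImJ, and on the high-fat diet 8 were higher and 4 lower. Glo1 was higher by 1.24 on chow (adjusted p = 2.50e-11) and Glrx by 1.40 (adjusted p = 3.62e-11), and Gclm, a subunit of the first enzyme of glutathione synthesis, was higher by 0.40 (adjusted p = 5.75e-06).

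Of 11 genes listed for the making or breakdown of mercapturates, 3 rose with diet in 129S1/SvImJ, Acy3 (0.53, adjusted p = 2.07e-06), Ggt6 (0.84, adjusted p = 0.000665) and Acy1 (0.37, adjusted p = 0.0260). Acy1 and Acy3 are aminoacylases, which remove acetyl groups, so they do not form mercapturates. In C57BL/6J 2 rose, Acy3 (0.28, adjusted p = 0.00119) and Ggt6 (0.46, adjusted p = 0.0150), and Nat8f1 fell (-0.40, adjusted p = 0.0436). Between strains 1 was higher and 2 lower on chow, and 3 higher and 2 lower on the high-fat diet, with Acy1 higher by 0.84 and 1.01 and Nat8 lower by -1.26 and -1.19. Of 15 transporters of conjugates, the canalicular exporter Abcg2 rose in both strains, by 1.10 (adjusted p = 1.09e-07) and 0.65 (adjusted p = 6.77e-05). Abcc3 fell in 129S1/SvImJ (-0.46, adjusted p = 0.0483), and Abcb1a rose in C57BL/6J (1.71, adjusted p = 0.00410). On chow 2 were higher in 129S1/SvImJ, Abcb1b (1.38) and Slco1b2 (0.33), and on the high-fat diet 4 were higher and 3 lower.

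Among 16 receptors and factors known to act on these genes, Cebpa (-0.50, adjusted p = 0.000624) and Ahr (-0.53, adjusted p = 0.0117) fell with diet in 129S1/SvImJ and Arnt rose (0.37, adjusted p = 0.00526). In C57BL/6J Hnf4a (-0.53, adjusted p = 0.00798) and Tcf7l2 (-0.29, adjusted p = 0.0169) fell. Nr1i3, which encodes the receptor CAR, was higher in 129S1/SvImJ on chow (0.73, adjusted p = 0.00574) and on the high-fat diet (0.69, adjusted p = 0.00297). Nr1h4 was the other gene called on chow, and on the high-fat diet Keap1 and Nfe2l2 were lower. Of 18 NRF2 targets outside the transferases, 1 rose in 129S1/SvImJ and 5 in C57BL/6J, Nqo1 by 0.86 (adjusted p = 0.00635) and Srxn1 by 0.59 (adjusted p = 0.0354) among them. In 129S1/SvImJ 2 were higher and 2 lower on chow, and 1 was higher and 9 lower on the high-fat diet. Of 12 targets of CAR and PXR, 3 rose and 1 fell with diet in 129S1/SvImJ, and 2 rose and 1 fell in C57BL/6J, with Cyp3a11 rising in both (1.39 and 0.81) and Cyp2b10 falling in both (-2.51 and -1.44). Between strains 1 was higher and 2 lower on chow, and 2 higher and 3 lower on the high-fat diet. Of 5 AhR targets, 1 fell in 129S1/SvImJ (Cyp1a1, -1.53), while in C57BL/6J Cyp1a2 fell (-1.35) and Nqo1 rose. Between strains none was called on chow (1 at an unadjusted p under 0.05, 0 by DESeq2), and on the high-fat diet Cyp1a2 was higher (1.76) and Nqo1 lower (-1.18) in 129S1/SvImJ.

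Several Ugt and Gst genes are known to differ between male and female liver. Of 14 genes known as higher in male liver, 4 fell with diet in C57BL/6J (Susd4, Elovl3, Cyp7b1 and Nudt7, -1.47 to -0.45) and 1 rose in 129S1/SvImJ (Cyp4a12b, 1.46). Between strains 1 was higher and 3 lower in 129S1/SvImJ on chow, and 6 higher and 1 lower on the high-fat diet. Of 7 genes known as higher in female liver, 1 rose and 2 fell in 129S1/SvImJ and 2 rose in C57BL/6J, Sult1e1 rising in both (4.74 and 3.00). In 129S1/SvImJ 2 were higher on chow, and 2 higher and 2 lower on the high-fat diet.

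Markers of other liver cells also differed between the groups. The 10 Kupffer cell markers were all lower in 129S1/SvImJ on chow (summed level 68.4 to 183 CPM against 209 to 351 CPM in C57BL/6J), and 7 of 10 were lower on the high-fat diet. Of 6 tested cholangiocyte markers, 4 were lower in 129S1/SvImJ on the high-fat diet (14.0 to 28.1 against 30.7 to 160 CPM). Among 10 markers of pericentral hepatocytes, where many UGTs and GSTs are known to be highest, 6 were lower and 2 higher in 129S1/SvImJ on the high-fat diet, although their summed level was higher there (10900 to 12907 CPM against 6439 to 11097 CPM). With diet 3 of the 10 fell in 129S1/SvImJ and 1 in C57BL/6J, and 4 of 9 general hepatocyte markers fell with diet in C57BL/6J. Of all genes tested, 5.01% and 7.20% were called lower with diet in 129S1/SvImJ and C57BL/6J. Between strains 12.5% were lower in 129S1/SvImJ on chow, and 19.1% lower and 17.9% higher on the high-fat diet. The 7 adipocyte markers, 3 of them tested, summed to 82.4 to 359 CPM in C57BL/6J on the high-fat diet and to at most 37.3 CPM in the other groups, with Lep and Plin1 at 0 in C57BL/6J on chow and Retn and Cidea at 0 in 129S1/SvImJ on chow. Most of the high sum came from the other listed genes, Cfd, Lipe and Cidea. In C57BL/6J on the high-fat diet Adipoq, Lep, Plin1 and Retn together stayed below 1 CPM, except in replicate 5 (6.31 CPM). The part of these cell types in the transferase results was not tested.

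Libraries also differed in the level of 7SK, a small nuclear RNA. Divided at the widest gap near the middle of its levels, 14 libraries formed the higher level. Each level holds part of the same mice, so fits within them are not independent of the calls on all libraries. For diet in 129S1/SvImJ, 3 (lower level) and 1 (higher level) of the 9 named genes called on all libraries were called within a level, and for diet in C57BL/6J 2 and 3 of 10. For strain these numbers were 11 and 13 of 15 on chow and 11 and 14 of 16 on the high-fat diet, and the interaction of Gstm6 was called in neither level. These genes were picked by their calls on all libraries, so their counts cannot be weighed against shares of all genes. Those shares in the lower and higher level were 2.08% and 1.87% for diet in 129S1/SvImJ and 2.13% and 5.19% in C57BL/6J. For strain they were 13.7% and 8.86% on chow and 10.6% and 25.9% on the high-fat diet.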

How the data were processed

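RNA was sequenced from whole liver, and the authors deposited raw counts per gene, as a matrix and as 24 single files identical to its columns. The authors also deposited variance-stabilized values on a log2 scale, used here for 1 alternative. Per the labels' protocols, RNA was extracted with QIAzol, treated with DNase, depleted of ribosomal RNA and made into directional libraries. STAR 2.5.4b, Trimmomatic 0.36, DESeq2 1.26.0, Bowtie2 2.2.3 and the mm10 build are named, with no roles, per the submitters' processing notes. The annotation release and strand setting behind the counts were not given in the sources used here.

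Gene identifiers were matched to GENCODE without their version; 95 had no match and held 0.00747% of counts. Counts were fitted in R 4.3.3 with edgeR 4.0.16 (filterByExpr, TMM scaling, robust quasi-likelihood, 1 mean per group, all 24 libraries, prior count 0.125), and p-values were adjusted over all 14533 genes tested. Strain differences are 129S1/SvImJ minus C57BL/6J and diet effects are high-fat diet minus chow. The SE beside a log2 value was worked back from the test, as the size of that value divided by the square root of its F statistic. Alternatives used DESeq2 1.42.0 and limma 3.58.1, other filters and scalings, fewer libraries, a replicate block, terms for 7SK level, and merged counts of genes sharing at least 20% of their 100-base stretches. The fit was tested on simulated counts. Each library is a mouse with its own identifier in the labels, and all 61 pairs of libraries within groups differed by more than counting noise, with a chi-square of 5.30 to 72.4 for each degree of freedom.

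Members and lists were chosen with earlier results of these data known. Genes were named by rule: in each comparison up to 6 called members per direction with the smallest adjusted p, and a fixed set whatever their p (Ugt1a1, Ugt2b1, Ugt2b5, Gsta1 to Gsta4, Gstm1 to Gstm3, Gstp1, Gstp2, Gstt1, Gstt3, Gstz1, Gstk1, Mgst1). Other members are given by ranges and calls, and up to 4 called genes per pathway list. Some genes of the lists are not reported here by name. Names outside the rule, such as Gstm2 and Gstm4 under other fits, were added after their values were seen.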

Additional observations from a re-analysis of the deposited data

Results flagged for a closer look

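In 160 sets of values of a tested gene in 1 group, a single mouse stood far from the others of its group 16 times (10%), by a gap test that chance alone meets in about 1 in 20 sets, or 8 here. In 129S1/SvImJ on the high-fat diet, replicate 3 accounted for 4 of these. Its Gstt1 was 123.4 CPM (162.6 to 181.1 in the others), its Ugt1a2 7.553 CPM (10.28 to 11.67), its Ugt2b37 5.395 CPM (1.159 to 2.337) and its Gstp2 1.529 CPM (0.1545 to 0.6233). In the same group Gstm3 was 34.9 CPM in replicate 5 (13.6 to 19.96), Gstm7 35.1 CPM in replicate 4 (39.83 to 42.23) and Ugt2b36 846.6 CPM in replicate 6 (690.9 to 748.1).

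In C57BL/6J on the high-fat diet, replicate 5 had Gstm3 at 167.4 CPM (7.868 to 59.51 in the others) and Mgst3 at 15.66 CPM (2.134 to 7.007). Replicate 6 of that group had Gstp2 at 1.304 CPM (0.5078 to 0.8199) and Gstt3 at 24.18 CPM (34.08 to 40.5). Among chow-fed C57BL/6J, replicate 3 had Gstm3 at 14.15 CPM (24.61 to 28.09) and Gstm6 at 47.2 CPM (69.59 to 76.44), and replicate 5 had Ugt1a6b at 55.45 CPM (44.47 to 47.34). Among chow-fed 129S1/SvImJ, Gstm1 was 887.1 CPM in replicate 4 (718.2 to 754.5) and Ugt1a6b 40.47 CPM in replicate 3 (47.95 to 49.48). The diet effect on Gstm6 differed between the strains, with an interaction of -0.80 on the log2 scale (edgeR adjusted p = 0.0431), and Gstm6 was the lone member so called.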

How the results depend on the processing

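For the 112 named results, 51 of them called, the alternatives gave 4214 values. Of these, 4012 stayed on the same side of the threshold (111 of them, uncalled, with another sign), 155 lost a call, 43 gained one and 4 called values changed sign. The 4 came from counting near-identical copies as 1 gene. The summed Ugt1a locus gave 0.46 for Ugt1a1 on chow and 0.27 for Ugt1a1 and Ugt1a5 on the high-fat diet, and the sum of Ugt2b38 and Ugt2b5 gave 0.040 on the high-fat diet. Merging leaves fewer genes to count, and the called members came to 7 of 30 for diet in C57BL/6J (14.8% of all genes) and 13 and 12 of 30 for strain on chow and on the high-fat diet (25.0% and 37.0%). Fitted on its own groups, diet in 129S1/SvImJ called 18 of 38 members (1724 of 13298 genes) rather than 9 of 40. Within the lower 7SK level, 6 of 41 members were called for diet in 129S1/SvImJ (14.6%, against 2.08% of all genes). Diet in C57BL/6J was called there for 4 (9.76%, against 2.13%). For strain 16 were called there on chow (39%, against 13.7%) and 12 on the high-fat diet (29.3%, against 10.6%). Within the higher level 1 was called for diet in 129S1/SvImJ (2.5%, against 1.87% of all genes) and 4 for diet in C57BL/6J (10%, against 5.19%). For strain 14 were called in that level on chow (35%, against 8.86%) and 18 on the high-fat diet (45%, against 25.9%). This division was chosen after seeing the data. For the interaction DESeq2 called 3 of 39 (7.69%, against 2.13% of all genes). The count was 0 with no filter on low counts, with a term for 7SK level divided at its widest gap (1 with the other division), within the lower 7SK level at its widest gap, within either level of the other division and without the 2 libraries above 1 CPM for Adipoq, Lep, Plin1 and Retn. With all libraries 18 members had an unadjusted p under 0.05, a count for which the share of all genes was not worked out. The cause of these shifts was not tested. Leaving out 1 library gave 5 to 12 members for diet in 129S1/SvImJ (5 without chow replicate 4 or high-fat diet replicate 3) and 9 to 13 for diet in C57BL/6J. Over all genes these fits called 937 to 1671 and 1627 to 2502. For strain the members numbered 18 to 22 on chow and 19 to 24 on the high-fat diet, against 3153 to 3814 and 4831 to 5554 of all genes. For the interaction they numbered 0 to 2, against 5 to 170 of all genes. With the replicate number as a block the members called were 9, 9, 20, 22 and 1 of 40, against 10.3%, 12%, 24.5%, 35.7% and 0.117% of all genes. Correlations of libraries of the same number ran from -0.22 to 0.31 over 33 pairs (median 0.054), and 14 were above 0.1, against 28 of 182 pairs of other numbers (median -0.010). The labels tie no replicate number to a shared origin, so the numbers were not taken to pair mice, but these correlations cannot exclude a pairing. The mouse identifiers also hold a number that several mice of the same group share. Its meaning is not given in the labels, and it was not fitted. A fit within the higher 7SK level at the widest gap was not run, since it held 2 libraries of 1 group. Genes with few counts, such as Ugt2b38 in 129S1/SvImJ, Gstp2 and Ugt2b37, are limited by depth.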
